A study of Mus musculus with 36 samples.

Results

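Population B of mouse brain cells was compared with the population labelled Neg in 12 of the 36 libraries of the study. Of these 12 libraries, 6 were of population B and 6 of Neg, 2 of each from olfactory bulb, from cortex and from brainstem, and they were chosen by the population and region given in their labels. All the groups came from brain of C57/Bl6 mice and carry the same labelled cell type, astrocyte, and no treatment, genotype or age is given for any of them. The meaning of Neg, the antigens or gates that separated the populations, and whether 2 libraries of a group are from different animals are not given in the labels, and the design text of the series speaks of cell lines where the labels speak of brain cells. The p-values below therefore reflect no more than how these 12 libraries vary, and that variation may be technical.

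Astrocytes take up transmitter, buffer potassium and supply lipids to neurons. Microglia are the resident macrophages of the brain: they depend on the receptor encoded by Csf1r, make most of the complement C1q of the tissue and read lipids and debris through Trem2, which signals through the adaptor Tyrobp. Zfp36 encodes tristetraprolin, a protein that binds AU-rich elements in the 3' untranslated regions of cytokine messages and speeds their decay. It is itself an immediate early gene, one of a group that is transcribed within a short time of a stimulus without new protein synthesis.

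Of 71 microglial genes 36, and of 38 astrocyte genes 31, were called higher in population B than in Neg on both of the scales used below. Over all 11830 genes tested, 801 (6.77%) were called so. After quantile normalization 16 of 24 neuron markers were called lower in B, where 7.11% of all genes were. Of these 4 were also called lower as deposited, and so were the myelin genes Mbp and Mobp on both scales. With each library rescaled to one sum instead, 8 of the 24 neuron markers were called lower. The 4 markers given for population B, C1qc, Trem2, Csf1r and Zfp36, were each higher in all 6 B libraries than in all 6 Neg libraries. Set against the label astrocyte, B held astrocyte genes and beside them microglial genes. These took 3.00% to 6.54% of gene FPKM for 38 astrocyte markers and 1.58% to 3.05% for 71 microglial genes. In Neg the shares of both were lower and that of the neuron markers was higher. Other lists reached shares of this size in single B libraries. Mature oligodendrocyte markers took 1.10% to 4.76% in B (3.69% to 26.9% in Neg), and choroid plexus and ependymal markers 0.00709% to 5.27%. In bulk libraries a larger number of cells of a type and more RNA per cell cannot be told apart.

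The libraries differed in ways that touch every comparison below. Transcript levels were deposited as FPKM, a fragment count scaled by transcript length and by library size, and summed here per gene. Summed over nuclear transcripts FPKM came to 24129.5 to 63081.2 in Neg and 109895.2 to 139690.7 in B. Genes at or above 1 FPKM numbered 7228 and 7465 in olfactory bulb Neg, 6347 and 3699 in cortex Neg, 2875 and 2104 in brainstem Neg, and 9395 to 10357 in B except for brainstem B replicate 2, which had 5903. The title of that library numbers it bi43639, apart from the others compared here (bi43314 to bi43352). What the numbers stand for is not given. Relative depth, read from the ratio of the deposited coverage to FPKM, was 1.38 to 1.70 in Neg and 2.71 to 4.08 in B. The 2 libraries of a group correlated across genes with r of 0.689 in brainstem Neg, 0.722 in brainstem B and 0.833 to 0.913 in the other groups, a description of the libraries since genes are not replicates.

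With FPKM as deposited, 6016 of 11830 genes tested (50.9%) were called higher in B and 74 (0.626%) lower, at an adjusted p under 0.05 in limma with region as block. The median difference over all genes, on the log2(FPKM + 1) scale used throughout, was 0.94, so a gene with no more than the common shift appears raised. After quantile normalization, which gives all 12 libraries one distribution of values, the median was -0.03, 801 genes (6.77%) were called higher and 841 (7.11%) lower. All 801 genes called higher after quantile normalization were also called higher as deposited, as against 72 of the 841 called lower. In what follows a gene is said to have risen or fallen only if it was called in that direction on both scales, and the quantile normalized difference is the one relative to other genes.

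**Figure D1:**
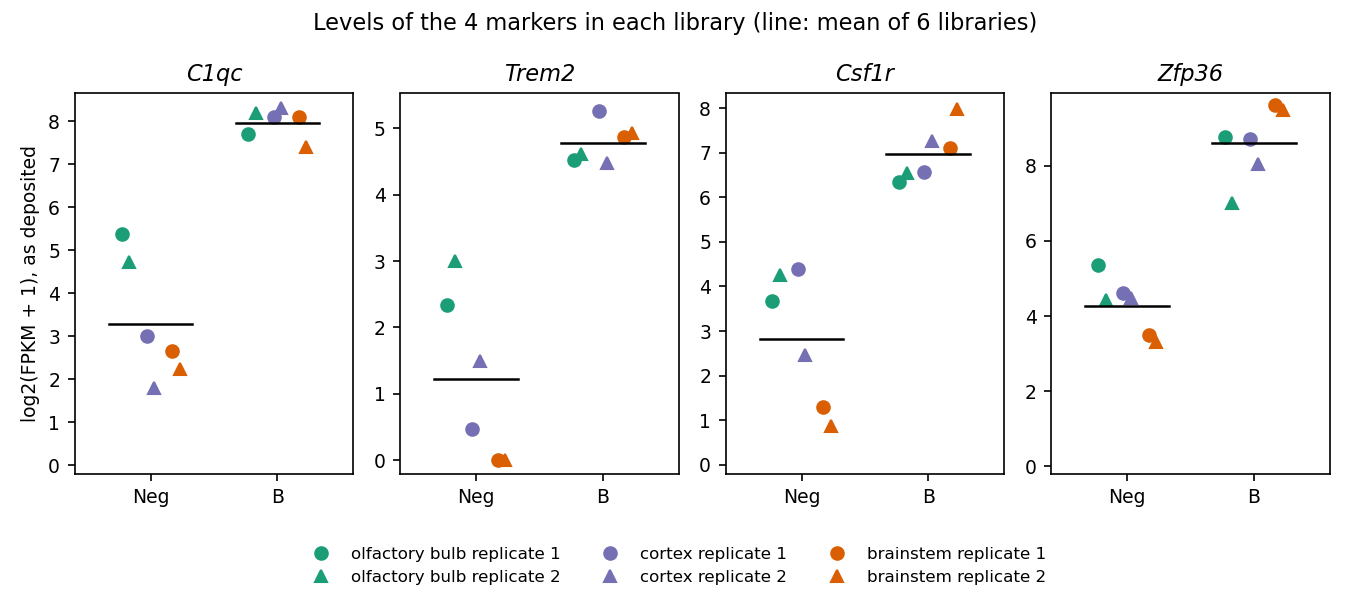
Level of C1qc, Trem2, Csf1r and Zfp36 in each of the 12 libraries as deposited, on a log2(FPKM + 1) axis, with Neg on the left and B on the right of each panel. Colours mark the region, circles and triangles the 2 libraries of a group, and lines the mean of 6 libraries. All 6 points of B lie above all 6 of Neg in each panel, and the 2 olfactory bulb Neg libraries are the highest of Neg for C1qc and Trem2.

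The secreted complement genes had the highest median of the 5 microglial lists. C1qc, which encodes the C chain of C1q (chromosome 4, 136889804 to 136893065, minus strand, GRCm38), had 40.5 and 25.3 FPKM in olfactory bulb Neg, 6.97 and 2.45 in cortex Neg and 5.27 and 3.70 in brainstem Neg. In B it had 208 and 290 FPKM in the olfactory bulb, 274 and 318 in the cortex and 273 and 167 in the brainstem. The lowest B library was thus above the highest Neg library, and as a ratio the Neg libraries were further apart than those of B. The difference was 4.67 ± 0.49 (SE, adjusted p = 2.53e-06) as deposited and 3.05 ± 0.39 (adjusted p = 0.000139) after quantile normalization. C1qb ranged from 2.26 to 32.8 FPKM in Neg (median 10.9) and from 116 to 205 in B (median 173), with no overlap on either scale, and differed by 3.84 ± 0.49 as deposited and by 2.28 after quantile normalization (adjusted p = 0.000959). C1qa reached 8.41 FPKM in Neg and ranged from 11.3 to 112 in B, where olfactory bulb B replicate 2 was the lowest by far; it differed by 2.67 after quantile normalization (adjusted p = 0.00858). All 3 C1q genes were called on both scales, and together they took 0.0334% to 0.117% of gene FPKM in Neg and 0.335% to 0.521% in B.

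The promoters of 2 of these genes and of Trem2 are shown because the genes rose together and because a purine-rich core, GAGGAA, bound by the myeloid factor PU.1, lies in each. The sequences are RefSeq promoters of GRCm38.p6, from 250 bases before to 50 after the annotated start, with the match in capitals; C1qc and Trem2 carry it on the other strand, as TTCCTC. The C1qb window is chr4:136886151-136886450 (minus strand), that of C1qc chr4:136892865-136893164 (minus strand) and that of Trem2 chr17:48346151-48346450 (plus strand).
C1qb: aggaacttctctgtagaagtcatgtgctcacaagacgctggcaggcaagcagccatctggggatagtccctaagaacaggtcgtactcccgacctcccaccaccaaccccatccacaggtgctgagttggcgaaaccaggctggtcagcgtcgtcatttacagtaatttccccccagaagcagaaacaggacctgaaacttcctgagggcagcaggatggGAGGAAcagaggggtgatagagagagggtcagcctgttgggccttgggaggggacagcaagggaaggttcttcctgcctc
C1qc: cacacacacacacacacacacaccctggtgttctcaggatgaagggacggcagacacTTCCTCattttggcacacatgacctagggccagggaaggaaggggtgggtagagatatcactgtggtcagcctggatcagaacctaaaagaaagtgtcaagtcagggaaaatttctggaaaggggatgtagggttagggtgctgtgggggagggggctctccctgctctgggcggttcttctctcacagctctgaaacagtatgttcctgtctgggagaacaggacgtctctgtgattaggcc
Trem2: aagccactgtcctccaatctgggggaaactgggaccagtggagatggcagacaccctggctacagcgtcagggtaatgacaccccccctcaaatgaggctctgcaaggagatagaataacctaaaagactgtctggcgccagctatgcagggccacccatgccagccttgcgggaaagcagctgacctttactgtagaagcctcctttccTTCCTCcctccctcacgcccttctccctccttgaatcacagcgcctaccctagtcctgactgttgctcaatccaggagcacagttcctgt
The match begins 30 bases before the start in C1qb, 193 in C1qc and 40 in Trem2. Searched on both strands, GAGGAA lies in 28.3% of 32851 promoters of that length, in 33 of 68 promoters of the microglial genes (48.5%) and in 18 of 38 promoters of the astrocyte genes (47.4%), so a match of 6 bases does not tell the lists apart; it is a description of the window and not a site.

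Receptors and sensors of microglia rose in part. Of 26 tested, 25 were called higher as deposited and 12 after quantile normalization, with a median difference of 2.43 as deposited and 1.17 after it, against 0.94 and -0.03 over all genes. Csf1r, the receptor for colony stimulating factor, had 11.8 and 18.2 FPKM in olfactory bulb Neg, 20.1 and 4.51 in cortex Neg and 1.45 and 0.826 in brainstem Neg. Its B libraries had 80.5 and 92.0 in the olfactory bulb, 94.0 and 153 in the cortex and 137 and 251 in the brainstem. The groups did not overlap, and the gene was lowest in Neg and highest in B in the same region, the brainstem. Csf1r differed by 4.14 ± 0.565 (adjusted p = 2.46e-05) as deposited and by 2.64 ± 0.40 (adjusted p = 0.000676) after quantile normalization. Csf1, a ligand of this receptor, rose as well, from at most 0.977 FPKM in Neg to 2.485 to 12.9 in B (quantile normalized difference 1.90 ± 0.36, adjusted p = 0.00256).

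Trem2 (chromosome 17, 48346401 to 48354147, plus strand) had 4.05 and 6.99 FPKM in olfactory bulb Neg, 0.392 and 1.83 in cortex Neg, and was listed at 0 in both brainstem Neg libraries. In B it had 22.0 and 23.3 FPKM in the olfactory bulb, 37.3 and 21.3 in the cortex and 28.2 and 29.4 in the brainstem. The B libraries lay within a narrow range whatever the region, and none overlapped Neg. The difference was 3.56 ± 0.48 (adjusted p = 2.06e-05) as deposited and 2.48 ± 0.44 (adjusted p = 0.00187) after quantile normalization. Tyrobp, the adaptor through which Trem2 signals, ranged from 1.47 to 15.98 FPKM in Neg and from 74.1 to 158 in B and rose by 3.66 as deposited and 2.17 ± 0.34 after quantile normalization (adjusted p = 0.000833).

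Genes used to mark resting microglia did not move as one. Tmem119, a membrane protein specific to microglia in the brain, rose (2.06 ± 0.44 after quantile normalization, adjusted p = 0.00562), as did the fractalkine receptor Cx3cr1 (1.33 ± 0.37, adjusted p = 0.0252). P2ry12, a purine receptor, had 4.92 to 14.5 FPKM in Neg and 25.0 to 77.1 in B without overlap, yet its difference of 2.24 as deposited became 0.74 ± 0.31 after quantile normalization and was not called (adjusted p = 0.12). Siglech, a lectin, overlapped between the groups, with 1.48 to 9.01 FPKM in Neg and 8.905 to 34.05 in B, and its quantile normalized difference was 0.40 ± 0.38 (adjusted p = 0.514). The lysosomal protease Ctss, abundant in microglia, was called higher as deposited but not after quantile normalization (0.67 ± 0.30, adjusted p = 0.152).

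Downstream of the receptors, all 18 adaptors and enzymes were called higher as deposited and 9 after quantile normalization (median 1.19). Laptm5, a lysosomal membrane protein of blood cells and microglia, had the largest quantile normalized difference of this list, 2.80 ± 0.60 (adjusted p = 0.00621), with 0 to 24.8 FPKM in Neg and 45.8 to 188 in B. Of 10 transcription factors, 10 were called as deposited and 3 on both scales, Cebpa and Maf among them. Cebpa was listed at 0 in 4 of the 6 Neg libraries and lay between 4.25 and 17.4 FPKM in B (2.43 ± 0.37, adjusted p = 0.00069). Spi1, which encodes PU.1, ranged from 0 to 6.33 FPKM in Neg and from 3.31 to 33.9 in B, overlapped, and was not called after quantile normalization (1.44 ± 0.58, adjusted p = 0.111).

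Lysosomal and secreted genes of microglia numbered 14, all called higher as deposited and 9 on both scales, with a quantile normalized median of 1.49. Lyz2, lysozyme of myeloid cells, rose by 2.89 ± 0.51 (adjusted p = 0.00178) and Grn, progranulin, by 2.84 ± 0.49 (adjusted p = 0.00137) after quantile normalization. Cathepsin D, Ctsd, the most abundant of the microglial genes, ranged from 15.4 to 34.8 FPKM in Neg and from 208 to 422 in B (1.97 ± 0.28, adjusted p = 0.000293). Over the 5 microglial lists together, 70 of 71 tested genes were called higher as deposited and 36 on both scales, none was called lower on either scale, and the medians were 2.46 as deposited and 1.22 after quantile normalization.

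All 6 B values were above all 6 Neg values for 49 of the 71 microglial genes as deposited and for 15 after quantile normalization, where 13% and 2.37% of all genes tested did so. For a B below Neg without overlap the shares over all genes were 0.0592% as deposited and 2.78% after quantile normalization, and no microglial gene was among them. Cd84, one of the receptors, lacked an estimate for some transcripts in brainstem B replicate 2, so its sum there (40.8 FPKM) is not a full estimate.

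Of 15 markers of monocytes, neutrophils and lymphocytes only 3 reached the level for testing, and none rose. S100a8, a neutrophil gene, had 7.05, 9.415 and 12.6 FPKM in single Neg libraries of the olfactory bulb, cortex and brainstem and at most 0.533 in B; it was called lower as deposited (-1.59, adjusted p = 0.031) and not after quantile normalization (adjusted p = 0.0713). The monocyte gene Ccr2 and the lymphocyte genes Cd3e and Cd79a did not reach the level for testing. Macrophages of the brain's borders have their own markers, of which 10 of 10 were called higher as deposited, where 50.9% of all genes were. On both scales 3 were called, Mrc1, Pf4 and Cbr2, where 6.77% of all genes were. With each library rescaled to one sum, 8 of the 10 were called higher. So were 28 of the 71 microglial genes and 1013 of all 11830. Mrc1, the mannose receptor, ranged from 0 to 0.996 FPKM in Neg and from 3.05 to 11.8 in B (quantile normalized difference 1.25 ± 0.33, adjusted p = 0.0191). The border macrophage list took at most 0.0145% of gene FPKM in Neg and 0.0291% to 0.0543% in B, against 1.58% to 3.05% for the microglial lists. Of 6 tested genes of disease-associated microglia, 5 were called as deposited and 0 after quantile normalization in limma, with 0.0402% to 0.0793% of gene FPKM in B.

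**Figure D2:**
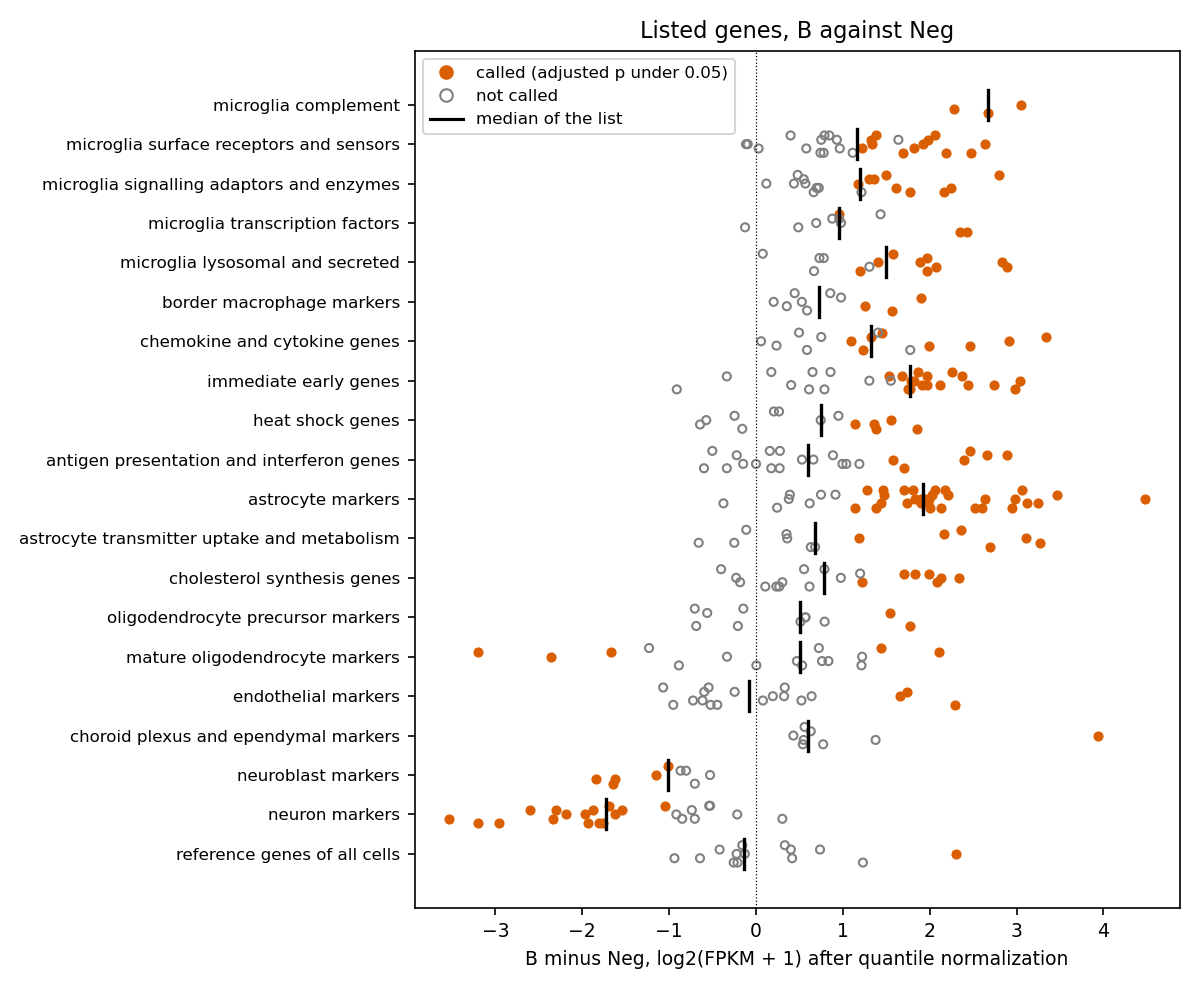
Difference between B and Neg after quantile normalization for each tested gene of 20 lists, on a log2(FPKM + 1) scale, with 1 point per gene and a bar at the median of the list. Filled points were called at an adjusted p under 0.05 after quantile normalization. Complement, astrocyte and immediate early genes lie to the right of 0 with medians of 2.67, 1.93 and 1.76, and neuron markers to the left with a median of -1.73.

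Most astrocyte markers rose. Of 38 astrocyte markers, 37 were called higher as deposited and 31 on both scales, and the medians were 3.27 as deposited and 1.93 after quantile normalization. The gene with the largest difference of all 11830 tested was an astrocyte gene, Gpr37l1, which encodes an orphan receptor (chromosome 1, 135160234 to 135167681, minus strand). It had 1.98 and 5.64 FPKM in olfactory bulb Neg, 5.69 and 0.320 in cortex Neg and 0.228 and 0 in brainstem Neg, against 99.8 and 75.1, 199 and 161, and 168 and 92.4 in the same regions of B. No Neg library came near a B library, and Gpr37l1 differed by 5.68 ± 0.51 (adjusted p = 8.49e-07) as deposited and by 4.48 ± 0.42 (adjusted p = 1.56e-05) after quantile normalization.

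Apoe, the main lipid carrier of the brain, made by astrocytes and microglia alike (chromosome 7, 19696109 to 19699188, minus strand), had 125 and 129 FPKM in olfactory bulb Neg, 94.3 and 13.8 in cortex Neg and 10.3 and 8.01 in brainstem Neg. In B it had 1316 and 1555, 1112 and 1719, and 574 and 508 FPKM. Both populations were lowest in the brainstem, and the quantile normalized difference was 3.46 ± 0.38 (adjusted p = 4.06e-05). Other astrocyte genes with large quantile normalized differences were Slc7a10, a carrier of small neutral amino acids (3.25 ± 0.36, adjusted p = 4.54e-05), Htra1, a secreted protease (3.07, adjusted p = 0.000813), the neurotensin receptor Ntsr2 (2.99, adjusted p = 0.000813) and the secreted chaperone Clu (2.94, adjusted p = 0.000285). Aldh1l1, a folate enzyme used as a general astrocyte marker, ranged from 0 to 2.01 FPKM in Neg and from 7.26 to 29.4 in B (1.98 ± 0.33, adjusted p = 0.00115). Slc1a3, a glutamate carrier, rose by 1.91 ± 0.30 (adjusted p = 0.000813) and the water channel Aqp4 by 1.46 (adjusted p = 0.00894).

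Of the 38 astrocyte markers and the genes of transmitter handling and reactivity, some well-known members were not called after quantile normalization. Slc1a2, the main glutamate carrier of the forebrain, had 91.4 and 97.8 FPKM in olfactory bulb Neg, 339.8 and 165 in cortex Neg and 54.7 and 18.7 in brainstem Neg, and overlapped with the 171 to 1063 FPKM of B. Its quantile normalized difference was 0.62 ± 0.31 (adjusted p = 0.2). Glul, glutamine synthetase, ranged from 43.4 to 274.6 FPKM in Neg and from 176 to 835 in B (0.24 ± 0.29, adjusted p = 0.623). Gfap, the filament protein of white matter and reactive astrocytes, ranged from 0.319 to 5.24 FPKM in Neg and from 0.0915 to 25.4 in B, where brainstem B replicate 2 was the lowest of all 12 libraries (0.38 ± 0.43, adjusted p = 0.603).

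Transporters and enzymes for transmitter handling split. Of 13 tested, 12 were called higher as deposited and 6 on both scales, among them the GABA carrier Slc6a11, the glycine carrier Slc6a9, the amino acid carriers Slc1a4 and Slc38a3, and Gldc, which breaks down glycine. Slc6a11 (chromosome 6, 114131241 to 114249952, plus strand) ranged from 0.914 to 40.3 FPKM in Neg and from 147 to 515 in B (quantile normalized difference 3.27 ± 0.41, adjusted p = 0.00012). The potassium channel gene Kcnj10 (0.68 ± 0.33, adjusted p = 0.179) and the glutamate dehydrogenase gene Glud1 (0.35 ± 0.30, adjusted p = 0.463) were called as deposited and not after quantile normalization. Of 10 reactivity genes only Vim, vimentin, was called on both scales (2.18 ± 0.35, adjusted p = 0.000875). Cholesterol synthesis, which astrocytes carry out for the adult brain, had 7 of 19 genes called on both scales, led by squalene epoxidase, Sqle (2.34 ± 0.42, adjusted p = 0.00201) and Dhcr7 (2.13 ± 0.36, adjusted p = 0.00122).

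The microglial and astrocyte sums were both higher in B. The 71 microglial genes took 0.429% to 0.974% of gene FPKM in Neg and 1.58% to 3.05% in B, and the 38 astrocyte genes 0.834% to 1.96% in Neg and 3.00% to 6.54% in B. Neither list overlapped between the populations. The log2 ratio of the microglial to the astrocyte sum within a library ranged from -1.17 to -0.48 in Neg (median -0.79) and from -1.56 to 0.03 in B (median -0.98), so the ratio overlapped. The 2 brainstem B libraries had the highest ratios of B. Leaving out the most abundant gene of each list, Ctsd and Apoe, turned the difference of the medians from -0.19 to 0.17, and with the mean of log2(FPKM + 1) over each list it was -0.81, so these data give no direction for the ratio.

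**Figure D3:**
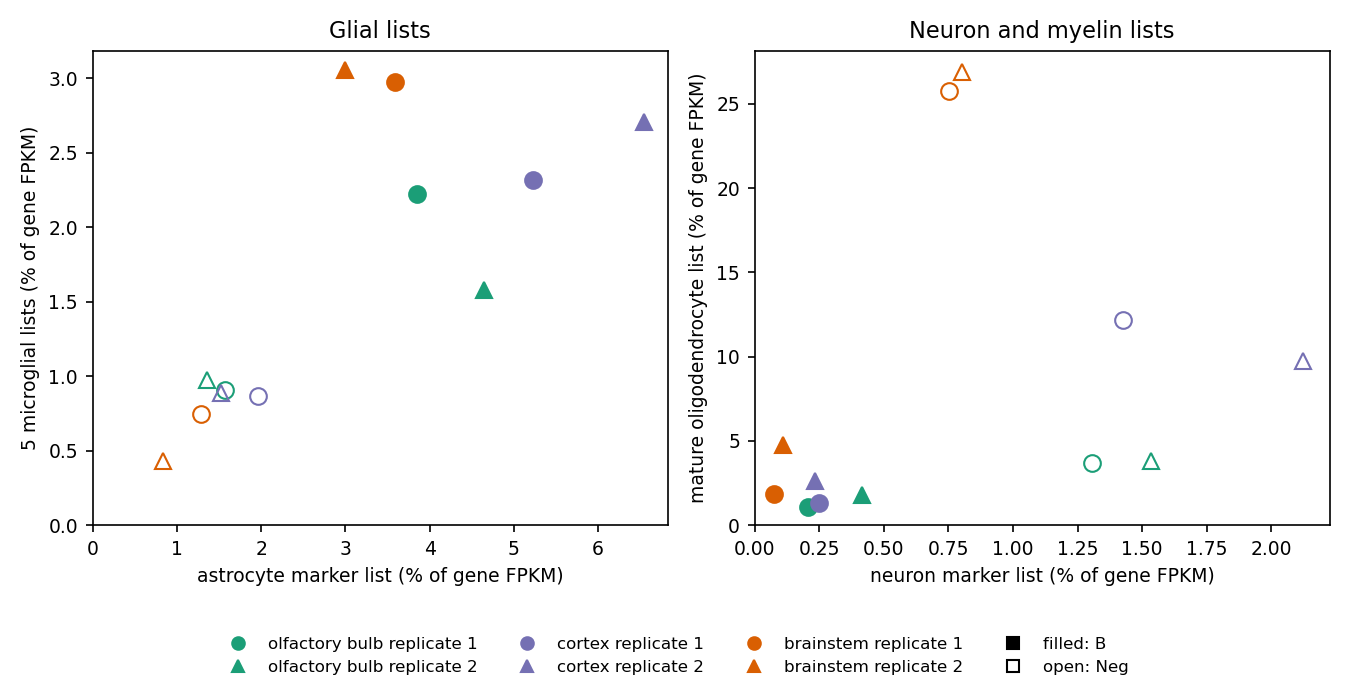
Share of gene FPKM in each library, with the astrocyte list against the 5 microglial lists on the left and the neuron list against the mature oligodendrocyte list on the right, as percent of the FPKM summed over genes. Filled symbols are B, open symbols Neg, colours the region and shapes the 2 libraries of a group. B lies at higher shares of both glial lists (microglial at least 1.58%, astrocyte at least 3.00%), and all Neg libraries at higher shares of the neuron list (at least 0.752%, against at most 0.415% in B).

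Immediate early genes, Zfp36 among them, were a further group that rose. Of 28 tested, 25 were called higher as deposited and 17 on both scales, with medians of 2.99 and 1.76. Zfp36 (chromosome 7, 28376784 to 28380253, minus strand) had 39.7 and 20.6 FPKM in olfactory bulb Neg, 23.3 and 21.4 in cortex Neg and 10.3 and 8.85 in brainstem Neg. In B it had 436 and 128 in the olfactory bulb, 421 and 265 in the cortex and 782 and 719 in the brainstem. The groups did not overlap, and replicate 1 was above replicate 2 in every region of B. The replicate numbers are not in the labels. In each region of B, replicate 1 was also the library with genes of the Y chromosome above 0, as given below. Whether the 2 patterns are linked was not tested. The difference was 4.33 ± 0.50 (adjusted p = 6.35e-06) as deposited and 2.74 ± 0.44 (adjusted p = 0.000875) after quantile normalization.

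Dusp1, a phosphatase that switches off stress kinases (chromosome 17, 26505590 to 26562128, minus strand), ranged from 2.16 to 16.6 FPKM in Neg (median 11.5) and from 133 to 421 in B (median 265). It differed by 3.04 ± 0.37 after quantile normalization (adjusted p = 9.64e-05). The transcription factors Atf3 (2.98 ± 0.47, adjusted p = 0.000875), Jun (2.37 ± 0.38, adjusted p = 0.000906), Fos (2.12 ± 0.46, adjusted p = 0.00618) and Egr1 (1.97 ± 0.36, adjusted p = 0.00216) rose as well. Olfactory bulb B replicate 2 had the lowest Atf3 (15.8 FPKM) and Jun (58.0 FPKM) of B. Egr3, a factor of the same class, had a difference of 0.09 as deposited and -0.91 ± 0.36 after quantile normalization and was not called (adjusted p = 0.101). The list took 0.205% to 0.376% of gene FPKM in Neg and 0.561% to 2.66% in B. Of 13 heat shock genes, 11 were called as deposited and 5 on both scales, among them Hspa1a (1.85 ± 0.43, adjusted p = 0.00974).

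Promoters of 3 genes of this group are shown because they carry the elements through which serum and cyclic AMP act on immediate early genes: the CArG box in Zfp36 and the CRE core TGACGT in Dusp1 and Fos, in capitals. The windows, again RefSeq of GRCm38.p6, are chr7:28379179-28379478 (minus strand) for Zfp36, chr17:26508423-26508722 (minus strand) for Dusp1 and chr12:85473640-85473939 (plus strand) for Fos.
Zfp36: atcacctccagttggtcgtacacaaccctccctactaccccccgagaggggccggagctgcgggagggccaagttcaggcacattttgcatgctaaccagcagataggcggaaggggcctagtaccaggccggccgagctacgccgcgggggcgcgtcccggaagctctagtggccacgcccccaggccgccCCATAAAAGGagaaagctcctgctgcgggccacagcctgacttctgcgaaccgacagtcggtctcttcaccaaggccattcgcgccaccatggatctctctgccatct
Dusp1: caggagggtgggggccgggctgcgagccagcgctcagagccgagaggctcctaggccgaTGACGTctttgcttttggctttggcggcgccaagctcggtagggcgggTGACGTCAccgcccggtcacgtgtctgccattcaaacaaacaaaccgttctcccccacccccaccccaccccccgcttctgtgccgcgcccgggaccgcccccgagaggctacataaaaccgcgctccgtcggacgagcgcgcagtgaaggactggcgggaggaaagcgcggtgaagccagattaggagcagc
Fos: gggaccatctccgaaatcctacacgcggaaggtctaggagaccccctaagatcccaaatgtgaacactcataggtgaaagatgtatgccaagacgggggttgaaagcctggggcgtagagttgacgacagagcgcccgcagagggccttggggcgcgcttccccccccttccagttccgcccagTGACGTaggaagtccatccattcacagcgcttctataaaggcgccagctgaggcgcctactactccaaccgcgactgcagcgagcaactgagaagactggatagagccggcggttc
The second run of capitals in Dusp1 holds overlapping matches on both strands. Searched on both strands, the CArG box lay in 1.63% of all 32851 promoters and in 5 of 29 promoters of the immediate early genes (17.2%), and TGACGT in 7.51% of all and in 9 of 29 (31.0%). No microglial and no astrocyte promoter in the table held the CArG box, and 3 of 68 (4.41%) and 3 of 38 (7.89%) held TGACGT.

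Some messages that Zfp36 is known to destabilize were higher in B. Of 9 tested targets, 8 were called higher as deposited and 6 on both scales, and the 3 family members Zfp36, Zfp36l1 and Zfp36l2 were called on both. Cxcl1 was not called on either scale (0.06 after quantile normalization, adjusted p = 0.929), and Myc (0.79, adjusted p = 0.199) and Ptgs2 (0.10, adjusted p = 0.909) were called as deposited alone. Tnf, tumour necrosis factor, was listed at 0 in 4 of the 6 Neg libraries, reached 0.295 FPKM in Neg and ranged from 0.700 to 20.4 in B (quantile normalized difference 1.45 ± 0.45, adjusted p = 0.0399). The chemokine gene Ccl3 ranged from 0 to 32.7 FPKM in Neg and from 55.8 to 273 in B (2.91 ± 0.70, adjusted p = 0.0117). Il1b, interleukin 1 beta, was listed at 0 in all 6 Neg libraries and at 0.558 to 9.10 FPKM in B. The family members Zfp36l1 (1.34, adjusted p = 0.0432) and Zfp36l2 (1.29, adjusted p = 0.0148) rose less than Zfp36 did, a difference that was not tested.

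The sites by which the family recognizes its targets are shown for 4 genes, as 30 bases of the 3' untranslated region around the first TATTTAT, in capitals.
Tnf: cagcccccctcTATTTATatttgcacttat
Ier3: tgtctaattaaTATTTATgTATTTATgtat
Ccl3: gtatttgtgacTATTTATtctgaaagactt
Zfp36: agtgggcccttTATTTATgacgactttatt
TATTTAT on the message strand lay in the longest 3' untranslated region of 10 of the 12 tested genes of the list (83.3%) and of 31.5% of 11369 tested genes with such a region. The list holds the family and its known targets, which are recognized by such sites, so its share is no finding of these data. Tnf had 8 copies, Ier3 4, Zfp36 3 and Ccl3 1, whereas Ccl2, which rose by 2.00 ± 0.44 after quantile normalization (adjusted p = 0.00711), had 0. Among all genes that rose it lay in 18.8% of 784 and among those that fell in 48.5% of 66, whose regions had median lengths of 832 and 2224 bases against 1271 for all.

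Of 15 chemokine and cytokine genes, 14 were called higher as deposited and 8 on both scales. Ccl4, a chemokine gene (chromosome 11, 83662584 to 83664683, plus strand), ranged from 0 to 2.29 FPKM in Neg and from 8.92 to 71.8 in B (3.34 ± 0.55 after quantile normalization, adjusted p = 0.00103), and Il1a, interleukin 1 alpha, reached 0.420 FPKM in Neg and lay between 4.91 and 47.8 in B (2.47 ± 0.46, adjusted p = 0.00237). Antigen presentation and interferon genes were called in 17 of 22 cases as deposited and in 6 on both scales: the class I genes H2-K1 and H2-D1, the class II genes H2-Aa, H2-Ab1 and Cd74, and Psmb9. H2-K1 ranged from 0 to 16.7 FPKM in Neg and from 31.7 to 113 in B (2.89 ± 0.54, adjusted p = 0.00256). B2m, the light chain of class I, was high in both, with 58.9 to 199 FPKM in Neg and 186 to 409 in B, and was not called after quantile normalization (0.18 ± 0.27, adjusted p = 0.704). None of the interferon-induced genes Isg15, Ifit1, Ifit2 and Ifit3 was called on either scale.

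Neuronal genes were lower relative to other genes. Of 24 neuron markers, 4 were called lower as deposited (Celf4, Camk2a, Snap25 and Nefm) and 1 higher (Thy1, which was not called after quantile normalization), and 16 were called lower and 0 higher after quantile normalization, with medians of -0.55 and -1.73. Snap25, a synaptic fusion protein, had 149.6 and 241 FPKM in olfactory bulb Neg, 122 and 116 in cortex Neg and 64.4 and 89.9 in brainstem Neg, and 49.2 and 144, 37.4 and 42.9 and 26.5 and 23.4 in the same regions of B. Olfactory bulb B replicate 2 lay within the range of Neg, and the difference was -1.43 as deposited (adjusted p = 0.00711) and -2.96 ± 0.34 (adjusted p = 5.98e-05) after quantile normalization, where the groups did not overlap. Camk2a, a kinase subunit of excitatory neurons, ranged from 17.95 to 379.7 FPKM in Neg and from 2.29 to 120 in B and fell by 3.20 after quantile normalization (adjusted p = 7.75e-05). The list took 0.752% to 2.12% of gene FPKM in Neg and 0.0738% to 0.415% in B. Of 9 neuroblast markers 5 were called lower after quantile normalization and 0 as deposited in limma. These counts depended on the scaling: with each library rescaled to one sum, 8 of the 24 neuron markers and 1 of the 9 neuroblast markers were called lower.

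Markers of mature oligodendrocytes moved in opposite directions, while their summed share was mostly lower in B. The 16 markers took 3.69% to 26.9% of gene FPKM in Neg and 1.10% to 4.76% in B, ranges that overlap. Mobp, a protein of compact myelin (chromosome 9, 120149707 to 120181484, plus strand), had 414 and 477 FPKM in olfactory bulb Neg, 1849 and 705 in cortex Neg and 1241 and 1340 in brainstem Neg, against 77.7 and 295, 172 and 320, and 173 and 354 in B. Every B library was below every Neg library, and Mobp fell by 2.07 as deposited (adjusted p = 0.000475) and by 3.20 ± 0.32 (adjusted p = 2.36e-05) after quantile normalization. Mbp, myelin basic protein, ranged from 1379 to 5032 FPKM in Neg and from 387.8 to 2623 in B; it fell by 1.12 as deposited (adjusted p = 0.0128) and by 2.36 ± 0.28 (adjusted p = 9.64e-05) after quantile normalization. Other genes of this list were higher as deposited: 10 of 16 mature oligodendrocyte markers were called higher and 2 lower, where 50.9% of all genes were called higher. After quantile normalization 2 were called higher, Trf (2.11 ± 0.50, adjusted p = 0.0107) and Gjb1 (1.44, adjusted p = 0.0229). Called lower were 3, Mobp, Mbp and Ermn (-1.66, adjusted p = 0.0154). Of 11 precursor markers, Olig2 and Sox10 were called on both scales (1.54, adjusted p = 0.0124, and 1.77, adjusted p = 0.00578).

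Further genes fell that are on none of the lists. Kif5b, a kinesin heavy chain, had 66.3 and 83.3 FPKM in olfactory bulb Neg, 229 and 188 in cortex Neg and 114 and 134 in brainstem Neg, and 16.5 and 38.8, 19.0 and 28.3, and 14.7 and 26.4 in B, without overlap. It fell by 2.40 as deposited (adjusted p = 0.000231) and by 3.83 ± 0.37 after quantile normalization (adjusted p = 1.56e-05). Its neuronal relative Kif5a fell by 2.17 as deposited and by 3.68 after quantile normalization, and Trak2, an adaptor that links mitochondria to kinesin, by 1.96 and 3.52. Rapgef4, Sh3gl3, Rph3a, Shtn1, Usp46 and Ppfia2 were the others of the 12 with the largest decrease, at -1.82 to -2.21 as deposited. Cdr1, the first of them, fell by 2.48 as deposited and by 3.90 after quantile normalization, from 300.3 to 936 FPKM in Neg to 49.3 to 336 in B. These libraries do not mark the strand, so reads of Cdr1 and of the antisense transcript of its locus cannot be told apart.

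Among the 12 genes with the largest rise that are not named above, Cmtm5, a membrane protein (chromosome 14, 54936261 to 54939274, plus strand), ranged from 0 to 13.1 FPKM in Neg and from 72.6 to 185 in B (3.91 ± 0.48 after quantile normalization, adjusted p = 0.00012). Tmem176b, a membrane protein of myeloid and other cells, ranged from 0.183 to 10.9 in Neg and from 42.4 to 84.1 in B (3.19 ± 0.43, adjusted p = 0.000215). Grcc10 (chromosome 6, 124739183 to 124741374, minus strand) was listed at 0 in all 6 Neg libraries and at 21.5 to 54.3 FPKM in B. Ttr, transthyretin, the main secreted protein of the choroid plexus, had 0.306 and 0.288 FPKM in olfactory bulb Neg, 364 and 74.3 in cortex Neg and 7.48 and 16.7 in brainstem Neg, and 630 and 0.239, 1661 and 461, and 5625 and 3372 in B. The 2 olfactory bulb B libraries differed widely, at 630 and 0.239 FPKM, and the call (3.93 ± 1.09 after quantile normalization, adjusted p = 0.0244) was lost when each library was rescaled to the same sum (adjusted p = 0.0599). Of the 8 choroid plexus and ependymal markers all were called as deposited and only Ttr after quantile normalization, and the list took 0.00709% to 5.27% of gene FPKM in B.

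Few markers of vessels and of other cells were called after quantile normalization. Over all genes tested, 50.9% were called higher as deposited and 6.77% on both scales, so the deposited counts here lie near the common shift. Of 18 endothelial markers 10 were called as deposited and 3 on both scales, Mfsd2a (2.30 ± 0.43, adjusted p = 0.00263), Slc2a1 (1.74, adjusted p = 0.00442) and Cldn5 (1.66, adjusted p = 0.0126), while Pecam1, Cdh5 and Flt1 were not called after quantile normalization. Of 9 pericyte markers Vtn was called higher on both scales (1.38, adjusted p = 0.035), and Abcc9 was called lower after quantile normalization only (-1.02, adjusted p = 0.0321). No fibroblast or olfactory ensheathing marker was called after quantile normalization in limma, of 7 in each list. Of 14 genes used as references in all cells 7 were called as deposited and 1 on both scales. Actb, actin, was at 13.4 to 140 FPKM in Neg and 226 to 468 in B and not called after quantile normalization (1.23 ± 0.41, adjusted p = 0.0569).

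The difference between B and Neg was compared between regions. By limma's F test of the interaction, 3 of 11830 genes (0.0254%) depended on the region as deposited, Xist, Rpl29 and Ighm, each with an adjusted p of 0.0472, and 2 (0.0169%) after quantile normalization, Xist and Rpl29. These calls rest on nearly every library: of 12 fits that each left out 1 library, 8 called 0 genes and 3 called 1, and without brainstem B replicate 1 the count was 192. None of the 4 markers was among the 3 genes. For C1qc the difference was 2.90 in the olfactory bulb, 5.82 in the cortex and 5.31 in the brainstem as deposited, and 1.87, 4.28 and 2.99 after quantile normalization (adjusted p of the region term 0.577 and 0.635). The microglial lists had medians of 1.07, 1.07 and 1.67 in the 3 regions after quantile normalization and the astrocyte list 1.69, 2.07 and 1.37, each above 0 in every region. Cd68, a lysosomal protein of macrophages, had the smallest p for the region term of the 71 microglial genes. It had 13.4 and 22.6 FPKM in olfactory bulb Neg, 16.8 and 8.09 in cortex Neg and 1.52 and 0 in brainstem Neg, against 39.9 and 37.2, 71.8 and 56.9, and 81.0 and 206 in B (adjusted p of the region term 0.362).

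The genes called for the region term, Xist, Rpl29 and Ighm, were on none of the glial lists. Ighm, the constant region of immunoglobulin M, was listed at 0 in every library but the olfactory bulb B libraries, at 12.2 and 25.8 FPKM. Rpl29, a ribosomal protein gene with near-identical copies that make its estimate uncertain, had 19.8 and 69.0 FPKM in olfactory bulb Neg, 0 in the other 4 Neg libraries and 14.6 to 102 in B. Prss56, a protease gene on the list of olfactory ensheathing glia, was at 8.235 and 11.9 FPKM in olfactory bulb B and near 0 elsewhere. It was not called for the region term (adjusted p of limma's F test 0.1). Plppr3 was at 2.795 and 3.79 FPKM in olfactory bulb Neg and 6.24 and 2.68 in cortex B (adjusted p of the region term 0.1).

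Xist, the RNA that coats the inactive X chromosome of female cells, differed with the sex-linked genes of the libraries. It had 27.6 and 29.2 FPKM in olfactory bulb Neg, at most 0.0135 in the 4 cortex and brainstem Neg libraries and 32.1 to 58.6 in the 6 B libraries. Of 4 genes of the Y chromosome, Ddx3y, Eif2s3y, Kdm5d and Uty, none was above 0 in olfactory bulb Neg, 4 were in 3 of the cortex and brainstem Neg libraries and 3 in brainstem Neg replicate 2. In each region of B, all 4 were above 0 in replicate 1 and 0 of 4 in replicate 2. In the cortex and brainstem, population and the sex of the source cells thus cannot be told apart. In the olfactory bulb, where both Neg libraries and B replicate 2 carried Xist alone, C1qc was 40.5 and 25.3 FPKM in Neg and 290 in that B library, Csf1r 11.8 and 18.2 against 92.0, Gpr37l1 1.98 and 5.64 against 75.1, and Snap25 149.6 and 241 against 144. These values, as deposited, carry the common shift and rest on 1 B library. After quantile normalization C1qc was 61.4 and 33.8 against 178.9 and Csf1r 15.9 and 23.3 against 58.9. By contrast C1qa was 10.41 and 10.36 against 6.91, and Cd68 17.8 and 29.3 against 24.5. Whether the differences hold at matched sex was not tested.

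**Figure D4:**
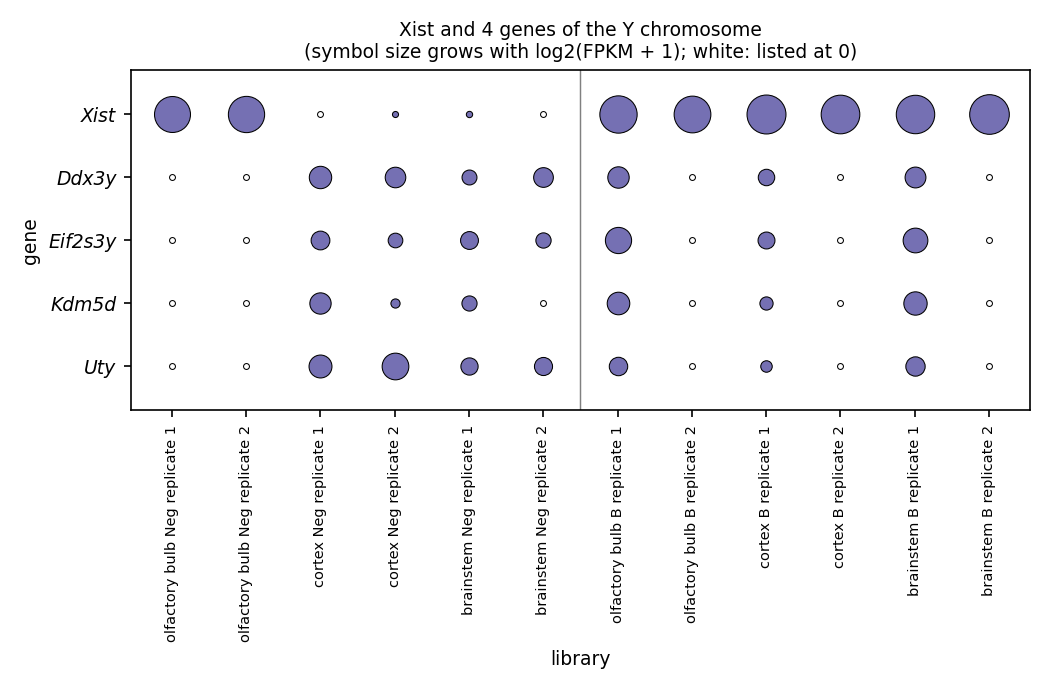
Xist and 4 genes of the Y chromosome in the 12 libraries, with library on the horizontal axis and gene on the vertical one; the symbol grows with log2(FPKM + 1), and white symbols are listed at 0. Cortex and brainstem Neg hold Y genes and almost no Xist, olfactory bulb Neg holds Xist alone, and replicate 1 of each region of B holds both.

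The differences moved with the base composition of the transcripts. Across the 11830 genes, Spearman's rho between GC content of the longest transcript and the quantile normalized difference was 0.32, and rho with its length was -0.23, as descriptions over genes that share the same 12 libraries. The median difference was -0.43 in the lowest of 10 equal groups by GC (31.0% to 41.4%) and 0.25 in the ninth (55.5% to 57.9%). Genes called higher after quantile normalization had a median GC of 53.5% and those called lower 45.9%, against 49.6% for those not called. Within the 71 microglial genes rho with GC was 0.63, and the genes called had a median GC of 53.2% against 46.4% for those not called; within the 38 astrocyte genes rho was again 0.63, at 52.4% against 45.3%. P2ry12, at 38.6% GC, and Siglech, at 45.5%, were on the low side, and C1qc, at 57.5%, and Gpr37l1, at 56.9%, on the high side.

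When a smooth trend on GC and then on length was removed from each library after quantile normalization, a step chosen after the data had been seen, 613 genes were called higher, 516 of them shared with quantile normalization alone, and 808 lower, 592 of them shared. The microglial lists then had 31 genes called, 28 of them shared, the complement genes 3, the astrocyte markers 28 (27 shared), the immediate early genes 15 (all shared) and the neuron markers 16 lower (15 shared). The list of Zfp36 and its targets fell from 9 to 3 called, that of chemokines and cytokines from 8 to 4 and that of antigen presentation from 6 to 3, where H2-D1 (adjusted p = 0.0617), Cd74 (adjusted p = 0.0567) and Psmb9 (adjusted p = 0.111) lost the call. Of the border macrophage markers Mrc1 was still called (adjusted p = 0.00406), and Pf4 (1.41, adjusted p = 0.0998) and Cbr2 (1.01, adjusted p = 0.133) were not. Among mature oligodendrocyte markers, Trf stayed called higher in limma (adjusted p = 0.029) and Mobp and Mbp lower. Gjb1 (0.95, adjusted p = 0.131) and Ermn (-1.21, adjusted p = 0.0545) lost the call. C1qc differed by 2.51 ± 0.35 (adjusted p = 0.000406), Trem2 by 2.38 (adjusted p = 0.00278), Csf1r by 2.42 (adjusted p = 0.00129) and Zfp36 by 2.42 (adjusted p = 0.00217) under this step. P2ry12 was called (1.06 ± 0.30, adjusted p = 0.0307), as was Slc1a2 (0.95 ± 0.30, adjusted p = 0.0482), and Siglech (0.41, adjusted p = 0.527) and Ctss (0.58, adjusted p = 0.223) were not.

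**Figure D5:**
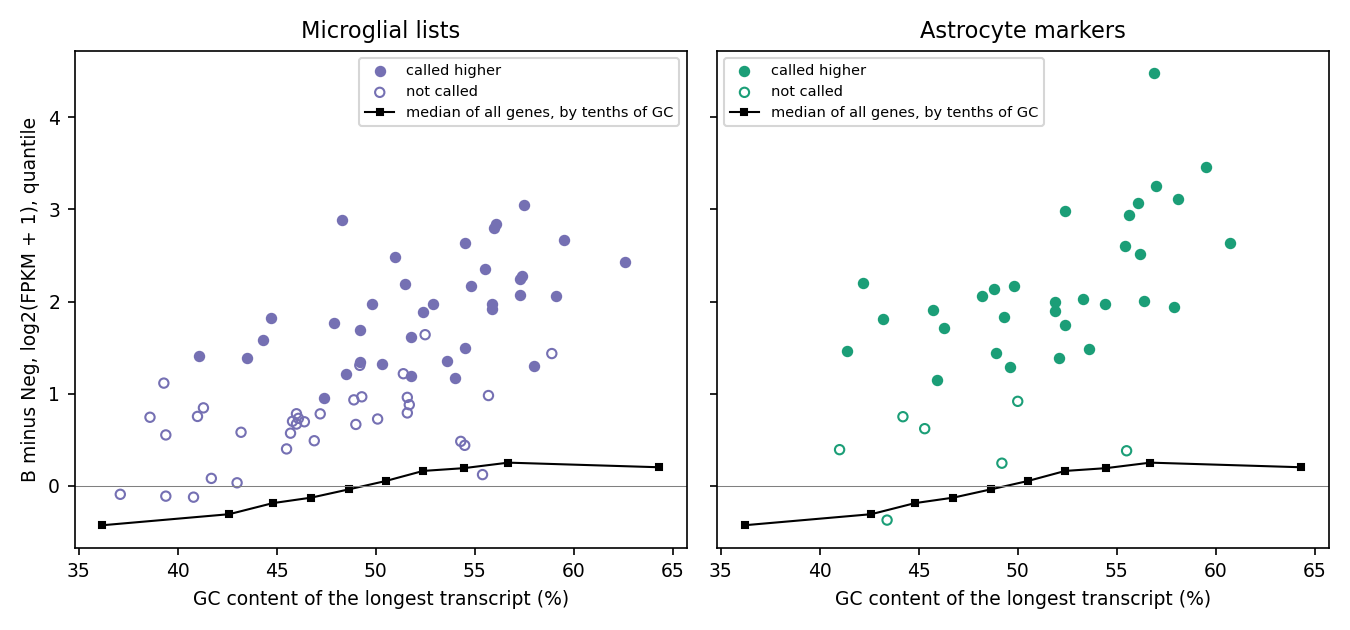
Quantile normalized difference between B and Neg, log2(FPKM + 1), against the GC content of the longest transcript for the microglial lists (left) and the astrocyte markers (right), with 1 point per gene, filled if called higher; black squares give the median of all genes in 10 equal groups by GC. Most listed genes lie above the black line, and most of those not called lie at the lower GC contents.

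Libraries that stood apart left the main counts in place for some lists and not for others. Without brainstem B replicate 2, after quantile normalization, 35 microglial genes, 32 astrocyte markers and 20 immediate early genes were called. With all 12 libraries these counts were 36, 31 and 17. Without the 3 Neg libraries with fewer than 4000 genes, as deposited, the genes called higher fell from 6016 to 1255 over all genes. The microglial genes called fell from 70 to 42, the astrocyte markers from 37 to 32 and the immediate early genes from 25 to 21. All 3 complement genes stayed called. The list of Zfp36 and its targets fell from 11 to 6 and that of chemokines and cytokines from 14 to 5. Left out here were both brainstem Neg libraries and cortex Neg replicate 2, so this setting holds no comparison within the brainstem. Each of C1qc, Trem2, Csf1r and Zfp36 stayed called higher in all 26 alternative settings.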

How the data were processed

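RNA from 12 libraries of mouse brain cells was compared. Per the labels' protocols, total RNA was amplified with NuGEN Ovation V2 from random and oligo dT primers, which does not mark the strand. The deposited FPKM values, with their confidence bounds, and the deposited coverage per transcript are in tables of 1 library each. Per the submitters' processing notes, bcl2fastq 1.8.3, TopHat and Cufflinks were used with mm10; for the last 2 the version is not given in the sources used here.

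Of 63241 transcripts, 52543 (83.1%) were assigned by locus to a GRCm38 gene. Mitochondrial transcripts were left out, and FPKM of the 52534 assigned nuclear transcripts was summed per gene, for 25460 genes. Genes at 1 FPKM or more in at least 2 libraries (11830) were tested as log2(FPKM + 1) with limma 3.58.1 in R 4.3.3 (Benjamini-Hochberg adjustment, region as block, 8 residual degrees of freedom), as deposited and after quantile normalization; Python 3.11.15 and pandas 2.3.3 did the rest. Relative depth is known only as the ratio of coverage to FPKM. The median half-width of the deposited confidence interval was 15.0% to 18.0% in Neg and 10.7% to 12.7% in B.

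Alternatives were another pseudocount (0.1), no filter, the highest transcript per gene, all 36 libraries, no block, library weights, a minimum log2 difference of 1, rescaling to a sum of 1000000, removal of GC and length trends, and each library left out in turn. Named were the 12 genes with the largest difference as deposited in each direction among those called on both scales (without unnamed genes, Gm and Rik names and pseudogenes), the 4 markers, 6 genes by the region term, and members that are extreme in a list or define a cell type; others named to complete a count were chosen after their values were seen. Members and lists were chosen with earlier results of these data known. The other 24 libraries entered only the alternative with all 36. Some members of the lists are counted but not reported by name here.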

Additional observations from a re-analysis of the deposited data

Results flagged for a closer look

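In 82 groups of 6 libraries, the highest or lowest value was compared with the rest by Dixon's criterion, and 7 stood apart; chance flags about 1 in 20 groups. Brainstem B replicate 2 had 5903 genes at 1 FPKM or more, against 9395 to 10357 in the other B libraries, and the largest share of endothelial markers, 0.336% of gene FPKM against 0.0867% to 0.148%. Brainstem Neg replicate 2 had the smallest shares of microglial adaptors and enzymes (0.0449%, against 0.142% to 0.201%) and of microglial transcription factors (0.0133%, against 0.047% to 0.0593%). Cortex Neg replicate 1 had the largest share of cholesterol synthesis genes in Neg (0.108%, against 0.0558% to 0.0716%). Hindbrain transcription factors had their largest shares in brainstem Neg replicate 1 (0.0242%, against 0% to 0.00479%) and brainstem B replicate 1 (0.00523%, against 0% to 0.000507%).

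The difference between B and Neg depended on the region for Xist, Rpl29 and Ighm (limma's F test, adjusted p = 0.0472 for each). The per-library values of all 3 are given with the comparison of regions.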

How the results depend on the processing

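The counts of genes called depended on the scaling. In place of 6016 higher and 74 lower (6090 in all), limma called 801 and 841 (1642) after quantile normalization, 976 and 940 (1916) after it without brainstem B replicate 2, 613 and 808 (1421) with GC and length trends also removed, 1013 and 279 (1292) after rescaling each library to one sum, 1096 and 264 (1360) after rescaling without Gm26917, a ribosomal RNA locus, and 1255 and 45 (1300) without the 3 Neg libraries under 4000 genes. A minimum log2 difference of 1 left 798 and 2 (800). The count called lower was 121 with library weights and 32 without the region block. Leaving out each library in turn gave 4531 to 7097 genes in all, 4463 to 6991 higher and 46 (without cortex B replicate 1) to 106 (without brainstem B replicate 2) lower.

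In place of 3 genes whose difference depended on the region, 5 were called with all 36 libraries, 5 with library weights, 1 with no filter, and 0 with the highest transcript per gene, after quantile normalization without brainstem B replicate 2 and with GC and length removed; at an unadjusted p under 0.05, 947 genes were called as deposited. Leaving out each library in turn gave 0 in 8 of 12 fits, 1 in 3 and 192 without brainstem B replicate 1. Thy1, called higher as deposited (1.51), turned to -0.17 with GC and length removed, and Ptgs2 to -0.35 after quantile normalization without brainstem B replicate 2. The cause of these changes was not tested. No paired analysis was possible because the labels carry no replicate numbers that could link a B library to a Neg library. Depth, lower in Neg, limits the genes near 0 there.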
